A study of Rattus norvegicus with 9 samples.

Results

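The genes described here are 9 genes read as homeostatic microglia and complement C1q in the rat hypothalamus: C1qa, C1qb, C1qc, Tmem119, Csf1r, Cx3cr1, Tyrobp, Aif1 and Ctss. They were chosen by name. Every probe set whose platform annotation gives one of these symbols alone was taken, which gave 10 probe sets for the 9 genes (Aif1 has 2), of 31042 probe sets and 14217 named genes on the array. Total RNA from the hypothalamus of male rats aged 13 weeks was hybridised to 1 Affymetrix expression array per rat, giving 9 arrays. In the noodle diet group, 4 rats (rats 1, 4, 7 and 13) had eaten a diet with 30% instant noodle by weight and 26% of its energy as fat for 30 days. In the control diet group, 5 rats (rats 2, 5, 8, 11 and 14) had eaten that diet with the seasonings left out. Both groups were pair-fed at about 60 g of diet per kg body weight per day, so noodle, fat content and amount eaten were shared and the seasonings were what differed. The comparison asks how the seasonings relate to hypothalamic gene expression. The labels name no strain and no batch.

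Microglia are the resident macrophages of brain tissue. They depend on the growth factor receptor Csf1r, sense the neuronal chemokine fractalkine through Cx3cr1, and in the healthy brain are the main source of C1q, the recognition molecule that opens the classical complement pathway and tags synapses for removal. Macrophages of the meninges and of the perivascular space are a separate population; they share Csf1r, Tyrobp, Aif1 and the C1q genes with microglia, but are marked by Mrc1, Cd163, Lyve1, Pf4, F13a1 and, for part of them, class II histocompatibility genes. Tmem119 is the member that best separates microglia from these border macrophages.

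Each deposited value is an expression level on a log2 scale, where a difference of 1 is a 2-fold change. Over all probe sets the values ran from 5.13 to 13.66, and the array medians from 6.777 to 6.785. Most probe sets hardly moved between rats: 29759 of 31042 (95.9%) spanned less than 0.01 log2 over the 9 rats and are called compressed here, while 1223 spanned more than 0.05 and are called variable. Of the members, 5 probe sets were variable (C1qa, C1qb, C1qc, Tmem119 and Tyrobp) and 5 were compressed (Csf1r, Cx3cr1, Ctss and both Aif1 probe sets). A fold change cannot be read from a compressed probe set. Across 311 genes with both kinds, the 570 pairs of a variable and a compressed probe set of the same gene had a median r of 0.46 over the rats and 76.3% were above 0. The same was not computed for pairs from different genes, so how much of this is signal of the gene itself was not tested. Correlations between arrays lay between 0.997 and 0.999, and no arrays were identical. The hypothalamic peptide genes Pmch (11.85 to 12.37), Avp (10.49 to 11.84), Oxt (8.66 to 10.52) and Hcrt (8.75 to 10.05) were well above the array medians in every rat, whereas the compressed probe set for Pomc was at 6.26, below them.

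C1q is built from A, B and C chains, encoded by neighbouring genes: in the RefSeq annotation of the rat build GRCr8, C1qb, C1qc and C1qa are the only genes in the interval from the first to the last of them. The 250 bases before the annotated starts of C1qa (chr5:154419934-154420183, minus strand) and C1qb (chr5:154407828-154408077, minus strand) are shown. Among the variable members, only these 2 had a promoter sequence available. They also had the closest pattern over rats of any pair of variable members. Capitals mark GAGGAA or GGAAGT on either strand (TTCCTC and ACTTCC on the other), the purine-rich cores bound by PU.1 (Spi1), the Ets factor of the macrophage lineage. These motifs were chosen after the sequences had been read.
C1qa: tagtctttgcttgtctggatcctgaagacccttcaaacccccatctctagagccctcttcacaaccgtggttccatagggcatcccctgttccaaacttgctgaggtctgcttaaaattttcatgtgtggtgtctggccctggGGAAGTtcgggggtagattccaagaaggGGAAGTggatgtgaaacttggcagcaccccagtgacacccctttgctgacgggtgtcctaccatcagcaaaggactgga
C1qb: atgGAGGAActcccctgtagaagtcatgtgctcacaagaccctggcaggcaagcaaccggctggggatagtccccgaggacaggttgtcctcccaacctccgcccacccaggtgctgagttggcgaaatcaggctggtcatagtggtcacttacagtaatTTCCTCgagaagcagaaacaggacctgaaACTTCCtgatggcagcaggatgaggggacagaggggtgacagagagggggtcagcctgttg
Both sequences are from RefSeq, GRCr8, read 5′ to 3′ on the strand of the gene. Counted back from the annotated start, C1qa holds GGAAGT at bases -107 to -102 and -79 to -74. C1qb holds GAGGAA at -247 to -242, its reverse complement TTCCTC at -90 to -85, and ACTTCC at -61 to -56. Of 33469 rat promoters cut to the same 250 bases, 23.3% hold GAGGAA, 19.2% hold GGAAGT, 36.7% hold either and 5.89% hold both, and the 2 motifs can overlap. Of the members, 5 were in the promoter table; Ctss has both motifs, Csf1r has GAGGAA 2 times and Cx3cr1 has neither in this window. A match describes letters only.

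C1qa had values of 8.61, 8.24, 8.57 and 8.47 in noodle rats 1, 4, 7 and 13, and of 8.74, 8.99, 8.73, 8.56 and 8.64 in control rats 2, 5, 8, 11 and 14. All 4 noodle rats lay below the control median and 2 of them, rats 4 and 13, lay below every control rat, but the groups overlapped. The range over the 9 rats, 0.753, corresponds to a 1.69-fold difference between noodle rat 4, the lowest, and control rat 5, the highest.

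C1qb had values of 8.22, 7.86, 8.10 and 8.01 in the same noodle rats and of 8.18, 8.38, 8.16, 8.02 and 8.18 in the control rats. The extremes were the same animals, noodle rat 4 and control rat 5, 1.44-fold apart; noodle rat 1 was above 4 of the control rats, and the groups overlapped. C1qc had values of 7.53, 7.12, 7.27 and 7.48 in the noodle rats and of 7.63, 7.65, 7.45, 7.37 and 7.54 in the control rats. Again noodle rat 4 was lowest and control rat 5 highest, with control rat 2 just under it, a 1.45-fold span with overlapping groups.

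Tmem119, a microglial membrane protein of the healthy brain, had values of 7.02, 6.74, 7.06 and 6.93 in the noodle rats and of 7.19, 7.30, 6.97, 7.0 and 7.06 in the control rats. Noodle rat 4 was lowest and control rat 5 highest, 1.48-fold apart, and the groups overlapped. Tyrobp encodes DAP12, the signalling adaptor of Trem2 and of many myeloid receptors. Its values were 7.14, 6.90, 6.99 and 6.99 in the noodle rats and 7.11, 7.33, 7.12, 6.77 and 6.85 in the control rats. Here control rat 5 was again highest, but control rats 11 and 14 were lowest, so the noodle rats lay inside the spread of the controls.

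**Figure D1:**
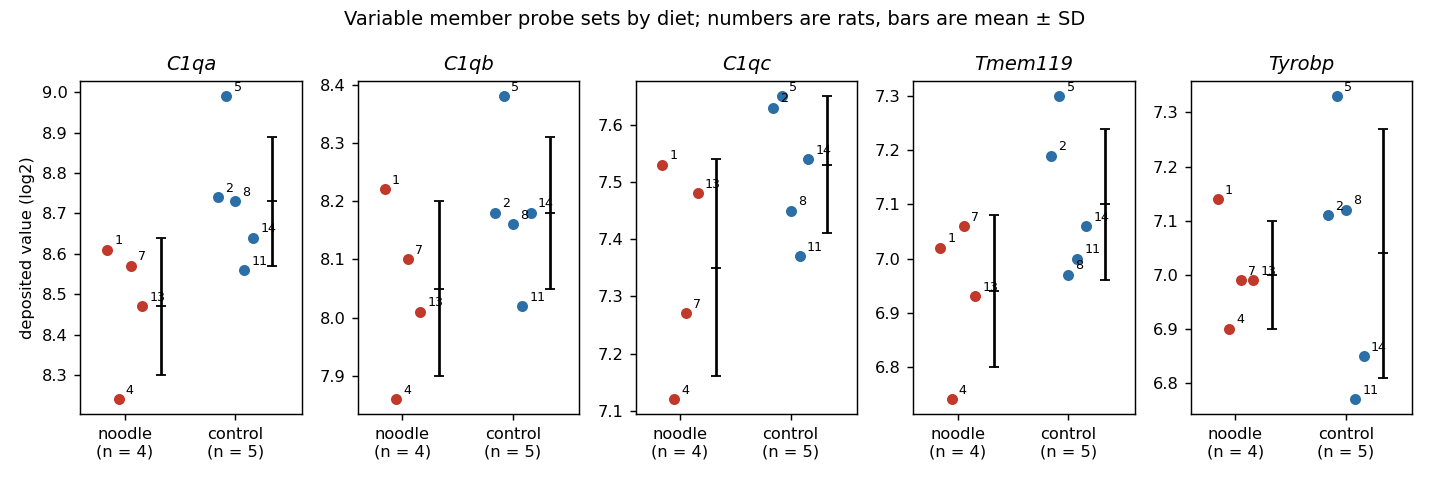
Deposited log2 value (vertical axis) of the 5 variable member probe sets in 4 noodle diet rats (red) and 5 control diet rats (blue); each point is 1 rat with its number, and the bar beside each group is the mean ± SD. Control rat 5 is highest in all 5 panels, noodle rat 4 is lowest for the C1q genes and Tmem119, and the groups overlap in every panel.

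The compressed members kept a level but almost no spread. Csf1r, the receptor for Csf1 and Il34, ran from 8.142 in control rat 11 to 8.1426 in control rat 5. Cx3cr1, the fractalkine receptor, ran from 6.9496 in noodle rat 13 to 6.95 in control rat 5. Control rat 5 was thus the highest rat for both, as for the variable members. Ctss, the lysosomal protease cathepsin S, ran from 10.3591 in control rat 11 to 10.3596 in control rat 5. Aif1, which encodes the calcium-binding protein Iba1, ran from 7.5792 to 7.5797 on one probe set (mean 7.58), with the same lowest and highest rats. Its other probe set (mean 6.64) ran from 6.6415 in noodle rat 7 to 6.6419 in control rat 11, and so placed control rat 11 at the opposite end.

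No member passed the test of the diet difference after adjustment. Noodle means were lower than control means for 9 of 10 member probe sets, and for all 5 variable ones, where the median difference was -0.17; over all 1223 variable probe sets the median was 0.0035 and 48.1% were lower, and over all 31042 probe sets 52.0% were lower, with a median of -4.6e-06. The median over all 10 member probe sets was -0.018. In these bulk samples fewer microglia and less RNA per microglial cell cannot be told apart. Since the variable members move together over rats, their shared sign is not 5 separate observations.

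C1qa had the largest difference of the members: 8.47 ± 0.17 (SD, n = 4) on the noodle diet against 8.73 ± 0.16 (SD, n = 5) in the controls. The difference was -0.26 (SE 0.10, 95% interval -0.50 to -0.019). Its limma p was 0.0379 before adjustment and 1.0 after Benjamini-Hochberg adjustment over all probe sets. The 2-sided exact permutation p was 0.0397, with an adjusted p of 1.0, where 0.00794 is the smallest p that 4 against 5 rats allow. C1qa was the 1 member of 10 below 0.05 before adjustment, by either test, and no member passed after it. Among all probe sets, 2.29% had a limma p under 0.05 before adjustment (1.35% lower on the noodle diet), and 0.0% passed after it; among variable probe sets, 4 of 1223 (0.327%) were under 0.05 and lower. The exact test gave 646 probe sets under 0.05 and none after adjustment. Groups did not overlap for 0 of 10 member probe sets, against 0.567% of all probe sets (0.351% with the noodle rats lower) and 0.0818% of variable ones. Without noodle rat 4 the C1qa difference was -0.18 and without control rat 5 it was -0.20, and with 1 rat left out, an unadjusted exact p under 0.05 was seen for 1 member when that rat was control rat 11 and for 0 members otherwise.

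C1qb was 8.05 ± 0.15 (SD, n = 4) against 8.18 ± 0.13 (SD, n = 5), a difference of -0.14 with a 95% interval of -0.34 to 0.066. C1qc was 7.35 ± 0.19 against 7.53 ± 0.12, a difference of -0.18 with an interval of -0.41 to 0.047. For Tmem119 the means were 6.94 ± 0.14 and 7.10 ± 0.14, with a difference of -0.17 and an interval of -0.38 to 0.039. All 3 intervals include 0, and noodle rat 4 weighed on all 3: without it the differences were -0.075 for C1qb, -0.10 for C1qc and -0.10 for Tmem119. Without control rat 5 that of C1qb was -0.09. Tyrobp stood at 7.0 ± 0.10 and 7.04 ± 0.23, and its difference of -0.036 (interval -0.31 to 0.24) became 0.038 without control rat 5. Differences of the compressed probe sets were -3.5e-05 for Csf1r, -9.6e-05 for Cx3cr1, 8.4e-06 for Ctss, and -4.6e-05 and -5.2e-05 for Aif1, each smaller than its standard error except that of Cx3cr1 (7.6e-05), and none is a fold change. The tests set each difference against the spread between these 9 rats, with 1 array each. For limma, that spread is moderated by the variances of all probe sets.

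**Figure D2:**
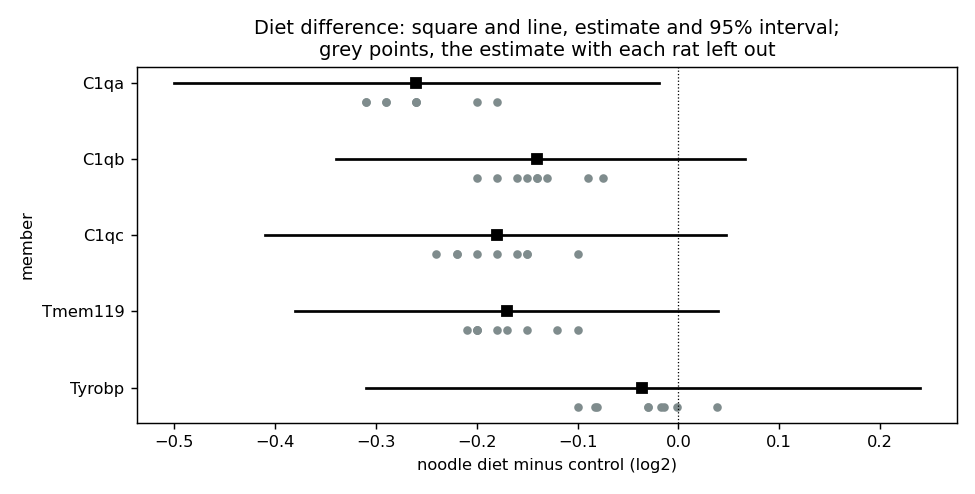
Noodle diet minus control diet (horizontal axis, log2) for the 5 variable members; squares and lines are the limma estimate and its 95% interval (4 against 5 rats), and grey points are the estimate with each rat left out in turn. Only the C1qa interval, -0.50 to -0.019, lies below 0, and the Tyrobp points fall on both sides of 0.

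Whether the C1q chains differed from each other in their diet difference was tested on the difference between chains within each rat. C1qa minus C1qb was lower on the noodle diet by an estimate of -0.12 (95% interval -0.20 to -0.035; exact permutation p = 0.0317, adjusted p = 0.0952 over 3 pairs). The other differences were -0.082 for C1qa minus C1qc (interval -0.26 to 0.12, exact adjusted p = 0.488) and 0.041 for C1qb minus C1qc (interval -0.11 to 0.18, exact adjusted p = 0.54). No pair passed.

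No gene of the surrounding pathways passed the test of the diet difference after adjustment. Of 34 further homeostatic microglia genes on 44 probe sets, 26 probe sets were lower on the noodle diet (median difference -7.5e-05), beside 52.0% of all probe sets. In either direction none passed after adjustment, and 1, of Trem2, had a limma p under 0.05 before it. Its variable genes were Fcgr2b, an inhibitory immunoglobulin receptor, with 6.37 ± 0.27 (SD, n = 4) against 6.45 ± 0.32 (SD, n = 5); Fcer1g, the shared Fc receptor chain, with 8.38 ± 0.046 against 8.41 ± 0.095; Arpc1b, an actin-nucleating subunit; Rnase4; and P2ry12, the purinergic receptor that marks homeostatic microglia. P2ry12 was 7.82 ± 0.29 against 7.78 ± 0.15 on its brighter probe set, and 7.31 ± 0.12 against 7.33 ± 0.11 on the other, so the 2 differed in direction.

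Ligands, receptors and signalling genes of microglia (26 genes, 44 probe sets, none variable) had 28 lower probe sets and none that passed. Here and for the lists below, the share lower over all probe sets was 52.0%. Before adjustment 3 of the 44 had a limma p under 0.05, all lower, beside 2.29% of all probe sets: Syk, Cd200r1 and Trem2. Of these Trem2, the lipid-sensing receptor that signals through Tyrobp, had a difference of -0.00033 on one compressed probe set (limma adjusted p = 1.0, 0.0078 unadjusted), and an unadjusted p of 0.384 on the other. Other complement genes and regulators (36 genes, 50 probe sets) had 29 lower and none that passed. Before adjustment 2 had a limma p under 0.05, beside 2.29% of all probe sets: Srpx2 lower and C4bpa higher, both compressed. C3, the central component cleaved downstream of C1q, was 6.83 ± 0.44 against 7.13 ± 0.46, and Serping1, the C1 inhibitor, 7.47 ± 0.43 against 7.51 ± 0.47. Activated microglia genes (28 genes, 35 probe sets) had 25 lower and none that passed. The 1 under 0.05 before adjustment was the same Trem2 probe set. Spp1, a secreted phosphoprotein, was 6.70 ± 0.15 against 6.79 ± 0.24, and Lgals3, a galectin of phagocytic cells, 7.37 ± 0.47 against 7.66 ± 0.59. The differences of C3, Serping1, Spp1 and Lgals3 were smaller than the SD within either group.

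The C1q genes and Tmem119 varied together from rat to rat. Among the 5 variable members there are 10 pairs, and every r was above 0. C1qa and C1qb had r = 0.95 (rho 0.88, exact permutation p = 0.000852, adjusted p = 0.00852 over the 10 pairs), C1qa and Tmem119 0.93, C1qb and Tmem119 0.90, C1qb and C1qc 0.84, C1qa and C1qc 0.83, and C1qc and Tmem119 0.80. Tyrobp had r from 0.59 with C1qc to 0.74 with C1qb; whether these differ from the others was not tested. With Pearson's r, 8 of 10 pairs passed at an adjusted exact p of 0.05, and with Spearman's rho 6. Centring the values within each diet left r between 0.72 and 0.95 among the C1q genes and Tmem119, and gave 0.86 for Tyrobp with C1qa, 0.79 with C1qb, 0.64 with C1qc and 0.66 with Tmem119.

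These correlations rest on few rats. When the 2 rats farthest from the median of each pair's first gene were left out, no pair passed; r was 0.75 for C1qa and C1qb (exact p = 0.0617 over 7 rats) and 0.60 for C1qa and Tmem119, while C1qc and Tmem119 kept 0.84 (unadjusted exact p = 0.0171). Without noodle rat 4, the lowest animal, 3 pairs passed, and without control rat 5, the highest, 5 passed. The mean deviation of the 5 variable members was -0.28 in noodle rat 4 and 0.28 in control rat 5, and between -0.10 and 0.12 in the other 7 rats.

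The compressed members followed in part. Over all 10 probe sets, 36 of 45 pairs had r above 0 and 9 passed adjustment. The share above 0 among pairs of other genes was not computed. The passing pairs were those among the C1q genes and Tmem119, and those among Csf1r, Tyrobp and the Aif1 probe set at 7.58. No compressed probe set passed with a C1q gene or Tmem119. With Spearman's rho no pair of the 45 passed, and the smallest exact adjusted p was 0.0507. Csf1r moved with Tyrobp (r = 0.84) and with the Aif1 probe set at 7.58 (0.86), and this Aif1 probe set with Tyrobp (r = 0.92, exact adjusted p = 0.0192 over 45 pairs). Ctss reached 0.78 with C1qb, and Cx3cr1 0.77 with C1qb, neither of which passed. The other Aif1 probe set had r below 0 with every other member probe set, from -0.59 with Csf1r to -0.01 with C1qc, so the 2 probe sets of Aif1 disagreed.

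**Figure D3:**
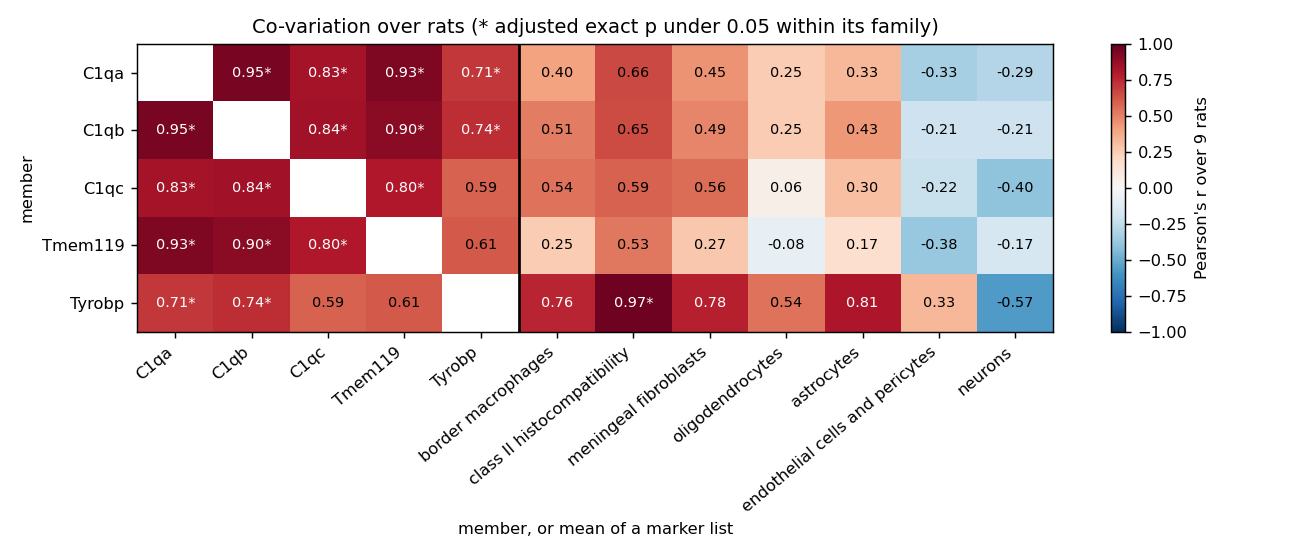
Pearson's r over 9 rats (colour and number, from -1 to 1) between the 5 variable members and, right of the black line, with the mean of 7 marker lists; an asterisk marks an exact permutation p under 0.05 after adjustment over the 10 member pairs or the 35 member and list pairs. The C1q genes and Tmem119 form a block from 0.80 to 0.95, and the only marked list value is Tyrobp with class II at 0.97.

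The meningeal signal had a wider range over the rats, 1.1 log2, than any member. The mean deviation over 29 variable probe sets of meningeal fibroblast genes (among them Igf2, Ogn, Col1a2 and Igfbp2) was 0.63, -0.33, -0.44 and 0.08 in noodle rats 1, 4, 7 and 13, and 0.36, 0.22, 0.49, -0.49 and -0.52 in control rats 2, 5, 8, 11 and 14. It was above 0 in 5 rats and between -0.52 and -0.33 in the other 4. Group means were -0.016 ± 0.48 (SD, n = 4) and 0.013 ± 0.48 (SD, n = 5), a difference well inside the spread of either group. Correlations are given here only over 6 rats or more, so none is given within either set.

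The order of rats in Tmem119 was not that of the meningeal signal, with Spearman's rho of 0.02 to the meningeal mean. For C1qa, C1qb and C1qc rho was 0.40, 0.47 and 0.32, and none of these passed. Noodle rat 1, highest in the meningeal mean, was near the middle in C1qa and Tmem119 but second highest in C1qb. Noodle rat 4, lowest in all 4 genes, was the fourth lowest rat in the meningeal mean. The r with the meningeal mean was 0.27 for Tmem119, 0.45 for C1qa, 0.49 for C1qb and 0.56 for C1qc, none of which passed (exact adjusted p of 0.646, 0.546, 0.472 and 0.421 over 35 pairs). With 9 rats, these values do not show that the signals were independent. After linear removal of the meningeal mean, r among the C1q genes and Tmem119 stayed between 0.78 and 0.93. Since their r with that mean was only 0.27 to 0.56, its removal could hardly lower these values. For Tyrobp with C1qc, r went from 0.59 to 0.29, while with C1qa, C1qb and Tmem119 it was 0.65 to 0.66 after removal. With the meningeal mean as a covariate, the diet differences were -0.26 for C1qa, -0.13 for C1qb, -0.17 for C1qc and -0.17 for Tmem119; since that mean was nearly equal in the diets, it could hardly move them, and these values do not bear on whether the members and the meningeal signal are separate.

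Tyrobp was the member with the highest r to the class II and border means. Its r was 0.97 with the class II mean over 7 probe sets of 5 genes (rho 0.97, exact permutation p = 8.54e-05, adjusted p = 0.00299) and 0.97 without the 2 rats farthest from the median of Tyrobp. This was the 1 pair of 35 that passed. The class II mean was 0.27, -0.29, -0.20 and 0.05 in the noodle rats and 0.19, 0.63, 0.29, -0.41 and -0.52 in the control rats, with the same highest rat and the same 2 lowest rats as Tyrobp. When each list was instead averaged over all its probe sets on a standardised scale, compressed ones included, that r was 0.83 and no pair passed (adjusted p = 0.158). With the meningeal mean Tyrobp had r = 0.78, with the border macrophage mean 0.76 and with the astrocyte mean 0.81 (each with an exact adjusted p of 0.134). For C1qa, C1qb, C1qc and Tmem119, r was 0.66, 0.65, 0.59 and 0.53 with the class II mean and 0.40, 0.51, 0.54 and 0.25 with the border mean, none of which passed. Centring within diets raised C1qa with class II to 0.80, and standardised means gave the 4 genes 0.58, 0.62, 0.67 and 0.36 with the border list. The 7 class II probe sets were mixed. With Tyrobp they had r from 0.32 (an RT1-Bb probe set) to 0.96 (an RT1-Ba probe set). With the meningeal mean they had r from 0.22 (another RT1-Bb probe set) to 0.91 (RT1-Db1). Class II was thus not a signal separate from the meningeal one.

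Tyrobp was not shown to differ from the other members in this, nor to be like them. The difference between its standardised value and that of each other variable member was correlated with the meningeal, class II and border means. None of these 12 tests passed. The smallest exact p was 0.103, for Tmem119 and the border list, with an adjusted p of 0.387. For class II, r was 0.97 for Tyrobp and 0.53 for Tmem119, and their difference had r = 0.5 (exact p = 0.172). This test does not take into account how closely Tyrobp itself followed a list. It therefore cannot decide whether the correlations differ, and a test comparing them directly was not run.

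**Figure D4:**
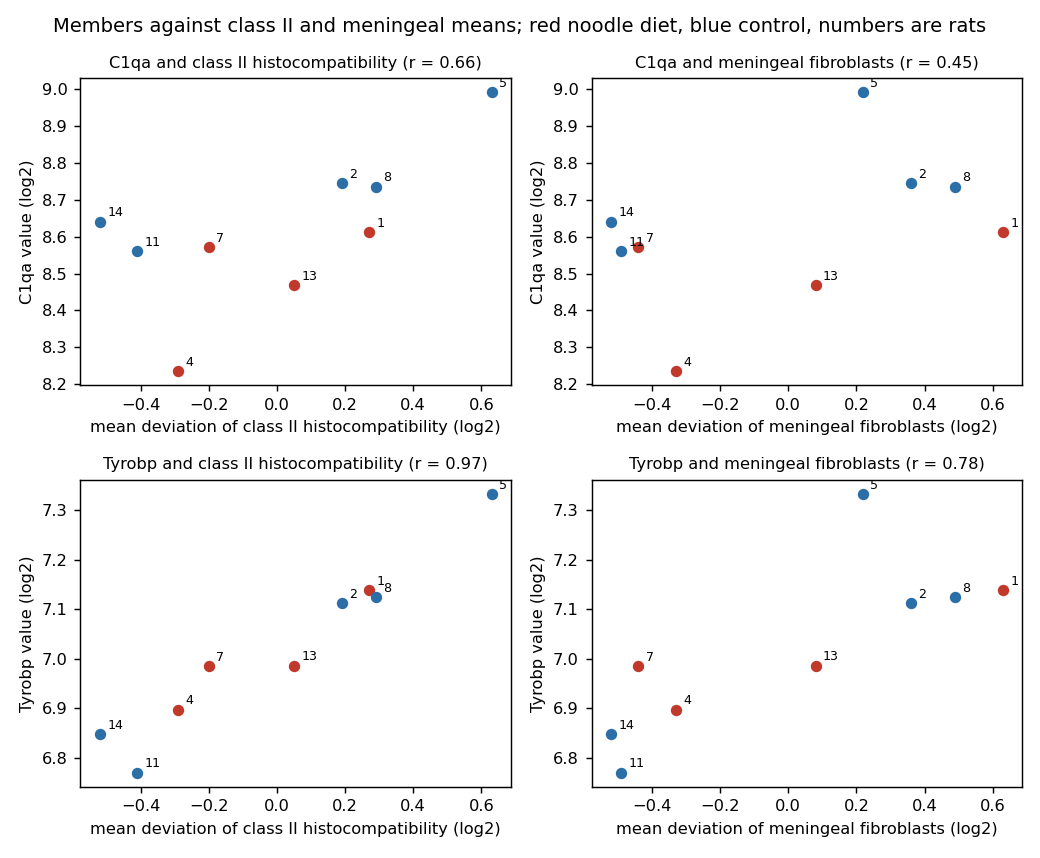
C1qa (top) and Tyrobp (bottom) in log2 against the mean deviation of class II genes (left) and of meningeal fibroblast genes (right) in log2; each point is 1 rat with its number, red for the noodle diet and blue for the control diet. The r is 0.66 for C1qa and 0.97 for Tyrobp with class II, and 0.45 for C1qa and 0.78 for Tyrobp with the meningeal mean.

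The defining genes of border macrophages could be followed only in part. Of the 24 listed genes 18 were measured, on 23 probe sets, and only Colec12, Dab2 and Maf were variable. Their mean deviation was 0.013 ± 0.37 (SD, n = 4) on the noodle diet and -0.011 ± 0.27 (SD, n = 5) on the control diet. Colec12, Dab2 and Maf had r of 0.99, 0.94 and 0.86 with the meningeal mean. The border mean is therefore not a measure separate from the meningeal fibroblast signal. Mrc1, the mannose receptor, was compressed (range 0.000732), yet had r = 0.92 with the meningeal mean, and the coagulation factor gene F13a1 had 0.91 and 0.94 on its 2 probe sets. Mrc1 had r = 0.20 with Tmem119, 0.34 to 0.45 with the C1q genes and 0.74 with Tyrobp. The chemokine gene Pf4 had 0.43 with Tmem119, 0.56, 0.66 and 0.70 with C1qa, C1qb and C1qc, and 0.80 with Tyrobp. F13a1 had, over its 2 probe sets, -0.02 and 0.31 with Tmem119, 0.17 to 0.62 with the C1q genes, and 0.63 and 0.68 with Tyrobp. Lyve1 had 0.05 and 0.25 with Tmem119, 0.26 to 0.54 with the C1q genes, and 0.16 and 0.48 with Tyrobp. Cd163 was low throughout, from -0.16 with Tmem119 to 0.26 with Tyrobp. Cd74, the class II invariant chain, was variable (range 1.65). It had r = 0.56 with Tmem119, 0.62 to 0.64 with the C1q genes, 0.95 with Tyrobp and 0.89 with the meningeal mean. Of 50 pairs of a variable member and a single gene, Tyrobp with Cd74 was the 1 that passed (exact adjusted p = 0.00344).

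P2ry12 went another way. This microglial receptor had r of -0.52 and -0.56 with Tmem119 on its 2 variable probe sets, -0.23 to -0.42 with the C1q genes, and -0.01 and 0.06 with Tyrobp, none of which passed. Its highest value on the brighter probe set was in noodle rat 4, the rat in which the C1q genes and Tmem119 were lowest. With the meningeal mean P2ry12 had r of 0.33 on the brighter probe set and 0.40 on the other. The other variable genes among the further homeostatic microglia genes had 0.93 (Arpc1b), 0.79 (Fcgr2b), 0.74 (Fcer1g) and 0.30 (Rnase4) with that mean.

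**Figure D5:**
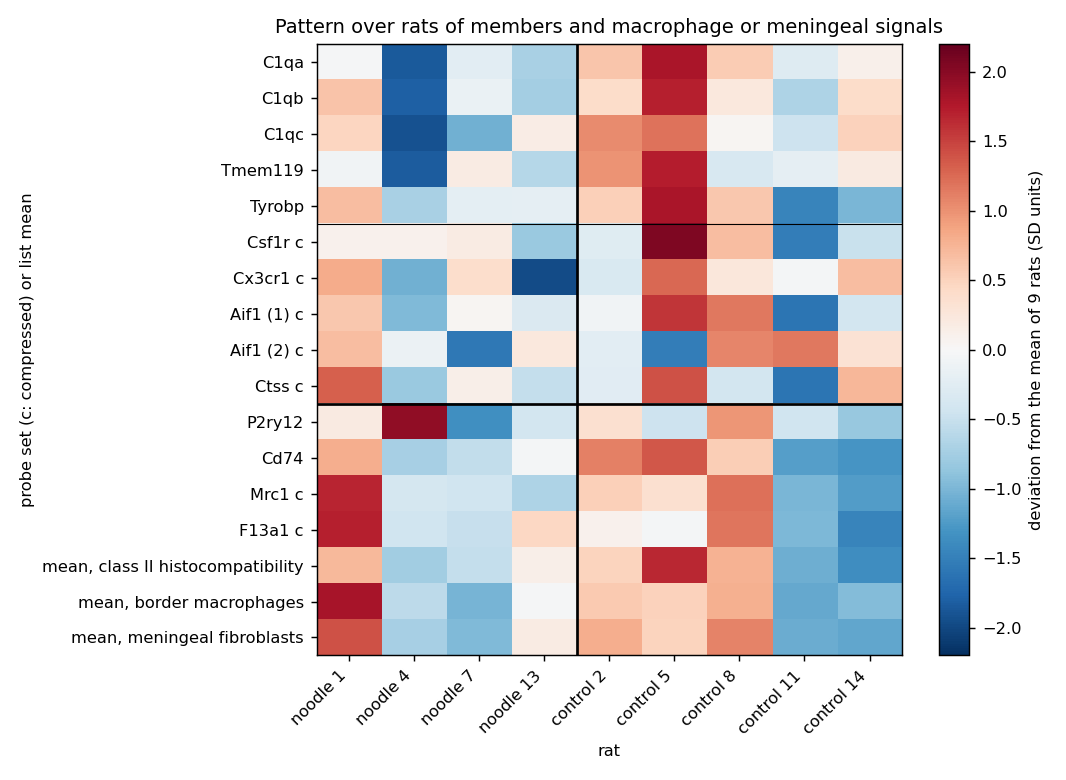
Deviation of each rat from the mean of 9 rats, in SD units (colour), for the 10 member probe sets, for P2ry12, Cd74, Mrc1 and F13a1, and for the means of 3 marker lists; noodle rats are left of the vertical line, control rats right, and c marks a compressed probe set, whose spread is under 0.01 log2 however strong its colour. Noodle rat 4 is darkest blue for the C1q genes and Tmem119, while the meningeal and border means are highest in noodle rat 1.

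Other cell type signals gave no pass with the C1q genes or Tmem119. The r with the oligodendrocyte mean ran from -0.08 to 0.25, with astrocytes from 0.17 to 0.43, with neurons from -0.40 to -0.17, and with endothelial cells and pericytes from -0.38 to -0.21. The endothelial mean rests on 3 probe sets that did not move together. Vtn, Rgs5 and Slco1c1 had r of 0.87, -0.67 and -0.64 with the meningeal mean. Their unadjusted limma p for diet was 0.902, 0.56 and 0.14. The mean did not overlap between diets (0.0042 to 0.051 in the noodle rats, -0.059 to -0.00047 in the controls). How often a mean of 3 probe sets does so was not computed. Centred within diets, its r turned to 0.46, 0.35, 0.45 and 0.14 for C1qa, C1qb, C1qc and Tmem119. None of 16 probe sets of blood leukocyte genes was variable, so white blood cells could not be followed. Of the erythroid genes only haemoglobin Hbb was variable. It was 10.87 ± 0.31 (SD, n = 4) on the noodle diet against 11.21 ± 0.40 (SD, n = 5), and lowest in noodle rat 4. For C1qa, C1qb, C1qc, Tmem119 and Tyrobp, the r with Hbb was 0.71, 0.57, 0.74, 0.58 and 0.73. With the meningeal mean Hbb had r = 0.77. The part of Hbb in the C1q result was not tested.

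Among 931 other named variable probe sets, 8 were taken as most like the mean of the 5 variable members over the 9 rats. They were Lcp1, the leukocyte actin bundler L-plastin (r = 0.89), Cp, the copper ferroxidase ceruloplasmin (0.89), Grn, the lysosomal growth factor progranulin (0.88), Fcgr2b (0.88), C3 (0.84), Spp1 (0.80), the annexin gene Anxa3 (0.79) and Grxcr1 (0.79). With C1qa they had r from 0.71 to 0.86, and with Tyrobp from 0.80 for C3 to 0.96 for Spp1. C3 and Grn had the smallest gaps between these genes, with 0.84 and 0.86 to C1qa and 0.80 and 0.84 to Tyrobp. Lowest were Nol3, an apoptosis repressor (-0.83), the neurofilament gene Nefl (-0.74 and -0.73 on 2 probe sets) and Olfm1 (-0.73). With the meningeal mean, the 8 most alike had r from 0.63 for Grxcr1 to 0.86 for Cp. The C1q genes and Tmem119 had 0.27 to 0.56 with that mean, and Tyrobp 0.78. These values are descriptions over 9 rats. The probe sets share the arrays and were picked for their likeness.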

How the data were processed

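Per the labels, total RNA was extracted with TRIzol, cleaned on a column, and 100 ng was labelled with biotin for 1 array per rat. The authors deposited log2 values in a series table, with summarisation and normalisation not given in the sources used here. Array intensities behind them were not used here. Probe sets were named from the platform annotation (20826 with 1 symbol, 436 with several, 9780 unnamed), of which 20758 matched the RefSeq gene table, and 57 manufacturer controls were left out of 31099. Groups came from the diet label.

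The deposited log2 values were fitted with limma 3.58.1 in R 4.3.3 (lmFit, eBayes with an intensity trend; no covariate), 2-sided, with Benjamini-Hochberg adjustment over 31042 probe sets and a threshold of 0.05. Intervals are 95%. Single values and correlations had exact permutation tests (scipy 1.17.1). A list's value in a rat is the mean deviation of its variable probe sets from their mean over rats. Correlations used each variable member probe set. Those over all member probe sets also used the compressed ones. Those with single border genes and P2ry12 used every probe set of these genes. Fitted on simulated data for this comparison over 31042 probe sets, limma found 8, 18, 37 and 49 of 50 probe sets changed by 0.25, 0.5, 1 and 2 log2, with 6 false calls; it made 0 calls with no change. In that simulation the noise was drawn independently for each probe set, and only variable probe sets were changed. Real variable probe sets move together over rats, so these counts need not hold for the real comparison. The number of arrays limits the precision.

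Named genes were all members; of each other list up to 6 with a variable probe set, highest mean first; the defining border macrophage genes; and the 8 variable probe sets most and 4 least like the member mean. The members, lists and tests were chosen with earlier results of these data known. Trem2 was singled out after its values were seen, and chosen after seeing the data were the tests on all 10 member probe sets, single border genes, standardised list means and removal of the meningeal mean. Alternatives were other scalings, filters, variance models, array weights, covariates, gene means and leaving out each rat.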

Additional observations from a re-analysis of the deposited data

Results flagged for a closer look

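Within a diet group, 2 of 66 groups of values tested had a rat far from the others by Dixon's criterion, where chance gives about 1 in 20, or 3.3 of 66. Csf1r was lowest in noodle rat 13, at 8.1421, with the other noodle rats between 8.1422 and 8.1423; this is a compressed probe set, so the gap is in the fourth decimal. Anxa3, one of the genes most like the members, was highest in noodle rat 1, at 8.99, with the other noodle rats between 8.84 and 8.86.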

How the results depend on the processing

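No probe set passed at an adjusted p of 0.05 under any scaling, filter, variance model, array weight or covariate tried, with any 1 rat left out, by the exact test, or at 0.10. The diet differences of C1qa (-0.31 to -0.18 with 1 rat left out), C1qb (-0.20 to -0.075), C1qc (-0.24 to -0.10) and Tmem119 (-0.21 to -0.10) kept their sign; Tyrobp ran from -0.10 to 0.038 and C1qb minus C1qc from -0.0046 to 0.096. The count of members at an unadjusted exact p under 0.05 ran from 0 to 1 with 1 rat left out. Compressed differences changed sign: Ctss was -0.00063 after quantile normalisation and -1.8e-05 with array weights; a common array median gave 2e-05 for Csf1r, and 8.9e-06 and 2.5e-06 for the Aif1 probe sets at 7.58 and 6.64; leaving out 1 rat gave -0.00011 to 5.2e-05 for Csf1r, -0.00011 to 1.1e-05 and -0.00011 to 1.4e-05 for Aif1, and -5.9e-05 to 6.5e-05 for Ctss. Passing member pairs numbered 0 without the 2 farthest rats and 3 to 9 with 1 rat left out. Passing member and list pairs numbered 2 with values centred within diets (Tyrobp with astrocytes joined, r = 0.87, exact adjusted p = 0.035), 0 with standardised means, and 1 with any 1 rat left out. Correlations with the endothelial mean turned to 0.46, 0.35, 0.45 and 0.14 for C1qa, C1qb, C1qc and Tmem119 within diets, and to -0.21 for Tyrobp with standardised means. Without the 2 farthest rats, r was -0.14 for C1qc with oligodendrocytes, and -0.023, -0.0018 and -0.37 for Tmem119 with class II, meningeal fibroblasts and astrocytes; the last was -0.03 with standardised means. With 1 rat left out, r ran from -0.051 to 0.28 for C1qc and -0.32 to 0.10 for Tmem119 with oligodendrocytes, and from -0.021 to 0.43 for C1qa and -0.25 to 0.27 for Tmem119 with astrocytes. The causes were not tested. No paired analysis was possible because the diet groups share no rat number.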
